A study of Homo sapiens with 7 samples.

Results

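The clustered histone genes of chromosome 6 were examined in the PIXUL-ChIP-seq data of HCT116 cells, a human colorectal carcinoma line. The rule took every protein-coding gene on chromosome 6 of the GENCODE annotation on hg19 whose symbol is H1-number or H2AC, H2BC, H3C or H4C with a number, and it returned 51 of 20162 protein-coding genes. These were 6 H1, 12 H2A, 13 H2B, 10 H3 and 10 H4 genes, each with 1 exon in its canonical transcript. The canonical transcripts were at most 797 bp long, with a median of 487 bp. A peak was assigned to a gene when it overlapped the gene or the 1 kb on either side. The H4 gene that the annotation lists under its older symbol, HIST1H4B, was not taken by the rule and is named only where it shares a peak with members.

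The study sheared chromatin in the wells of a 96-well plate by ultrasound and made 1 library per antibody (all from Active Motif), each from 1 well of about 200000 HCT116 cells treated for 6 min in 100 µl. Peak lists of H3K4me3, H3K9Ac, H3K4me1, H3K36me3, H3K27me3 and CTCF were used, and the H3K27Ac library was not analysed here. There were no replicates, no untreated or mutant group and no comparison between conditions, so every difference below is a difference between genes within a library and carries no p-value. The libraries differed in the antibody that was applied to the chromatin. The lists do not give the sequencing depth, which is unknown here and can change how many peaks were called and how wide they are. Of the colon epithelial markers, KRT8, KRT18, CDX2 and EPCAM had an H3K4me3 peak, VIL1 and CDX1 had none, and the blood and muscle markers CD3E, PTPRC, MYOD1 and MYH1 had none.

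Each peak carries a fold enrichment, a linear ratio of the ChIP signal to the background of the peak caller, which the methods describe as a comparison with input, and a −log10 q-value. H3K4me3, H3K9Ac, H3K36me3 and CTCF peaks were kept when their fold enrichment exceeded 5 at a q-value under 1e-10. The limits for H3K4me1 and H3K27me3 peaks were a fold enrichment of 2 and a q-value of 0.001. These limits are meant by the words past the limits, and a peak that was deposited without reaching them is called a weak peak. A member with several peaks of a mark is given the value of the highest, and members under the same peak share that value.

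Core histones H2A, H2B, H3 and H4 form the protein core of the nucleosome, and H1 binds the linker DNA between nucleosomes. The replication-dependent histone genes are transcribed mainly in S phase, and their short, intronless mRNAs end in a conserved stem-loop that takes the place of a poly(A) tail. NPAT is the coactivator that gathers at these genes in histone locus bodies. H3K4me3 and H3K9Ac mark the promoters of active genes, H3K4me1 marks promoter flanks and enhancers, H3K36me3 is laid down along transcribed gene bodies, H3K27me3 is the mark of Polycomb repression, and CTCF is a DNA-binding factor found at insulators and loop ends.

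The members lay in 4 blocks, where a gap of over 200 kb between neighbours began a new block. Block 1 (chr6:25723625-25727573) held H2AC1 and H2BC1. Block 2 (chr6:26017260-26285866) held 28 genes from H1-1 to H4C8 over 268.607 kb, block 3 (chr6:27093676-27115341) held 5 genes from H2BC11 to H2AC12 over 21.666 kb, and block 4 (chr6:27775257-27861669) held 16 genes from H2BC13 to H2BC17 over 86.413 kb. The gaps between the blocks measured 290, 808 and 660 kb. Along the blocks 24 members were transcribed from the plus and 27 from the minus strand.

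Many H2A and H2B genes are arranged head to head, so that a short stretch of DNA serves as the promoter of both. The sequence between the start sites is shown for the pair with the highest H3K4me3, the pair with the lowest and the testis-type pair of block 1, which had no peak of any mark. It is read 5′ to 3′ on the plus strand of hg19, with the TATA box TATAAA, the CCAAT box and the octamer ATTTGCAT of either strand in capitals.
H2BC4/H2AC6, chr6:26124155-26124399, H3K4me3 18.7: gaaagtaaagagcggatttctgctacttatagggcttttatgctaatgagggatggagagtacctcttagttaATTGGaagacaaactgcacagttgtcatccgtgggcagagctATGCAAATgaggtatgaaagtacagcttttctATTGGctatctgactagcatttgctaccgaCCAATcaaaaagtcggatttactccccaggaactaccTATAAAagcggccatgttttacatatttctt
H2AC14/H2BC14, chr6:27782556-27782799, H3K4me3 7.06: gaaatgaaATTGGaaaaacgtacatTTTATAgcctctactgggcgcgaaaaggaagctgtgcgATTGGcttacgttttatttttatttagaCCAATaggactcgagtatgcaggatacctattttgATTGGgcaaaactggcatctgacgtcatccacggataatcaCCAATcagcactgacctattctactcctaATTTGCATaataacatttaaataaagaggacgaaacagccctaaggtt
H2AC1/H2BC1, chr6:25726791-25727004, no peak: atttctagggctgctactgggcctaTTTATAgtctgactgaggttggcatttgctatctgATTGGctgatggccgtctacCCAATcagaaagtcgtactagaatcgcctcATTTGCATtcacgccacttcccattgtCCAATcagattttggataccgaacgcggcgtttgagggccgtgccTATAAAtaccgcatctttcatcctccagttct
All 3 stretches held 1 octamer. The stretch of H2BC4 and H2AC6 held 1 TATAAA and 3 CCAAT, that of H2AC14 and H2BC14 held 1 and 5, and that of H2AC1 and H2BC1 held 2 and 3.

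Upstream of the H4 genes the 100 bases before the start site are shown for H4C5, the H4 member with the lowest H3K4me3, for H4C8 with only a weak H3K4me3 peak, for H4C13 with no peak, and for the near-identical H4C11 and H4C12. They are read in the direction of transcription, with the hexamer GGTCCG of the H4 promoter element site II and TATAAA in capitals.
H4C5, chr6:26204738-26204837, plus strand, H3K4me3 7.61: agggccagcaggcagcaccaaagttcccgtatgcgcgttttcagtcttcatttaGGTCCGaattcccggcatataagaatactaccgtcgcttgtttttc
H4C8, chr6:26285763-26285862, minus strand, weak H3K4me3 peak: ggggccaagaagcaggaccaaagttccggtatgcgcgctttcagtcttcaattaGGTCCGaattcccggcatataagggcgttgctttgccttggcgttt
H4C13, chr6:27841313-27841412, minus strand, no peak: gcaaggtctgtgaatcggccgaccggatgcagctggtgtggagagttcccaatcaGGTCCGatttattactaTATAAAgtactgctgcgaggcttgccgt
H4C11, chr6:27791770-27791869, plus strand, H3K4me3 13.4: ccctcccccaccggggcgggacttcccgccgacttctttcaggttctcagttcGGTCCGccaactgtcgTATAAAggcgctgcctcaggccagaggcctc
H4C12, chr6:27799339-27799438, minus strand, H3K4me3 12.2: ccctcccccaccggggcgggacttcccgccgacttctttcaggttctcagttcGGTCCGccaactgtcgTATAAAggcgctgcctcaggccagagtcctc
H4C11 and H4C12 differed at 1 of these 100 positions, and H4C5 and H4C8 at 22, against a median of 72 over the 45 pairs of H4 members compared without gaps. H4C5 had an H3K4me3 peak past the limits and H4C8 did not, although their upstream sequences were the second closest of all H4 pairs.

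For the H1 genes the 120 bases before the start site are shown for both members with H3K4me3, for H1-1, the first gene of block 2, and for the testis-specific H1-6, both without a peak. Capitals mark the H1 box AAACACA, the CCAAT box and TATAAA.
H1-4, chr6:26156437-26156556, plus strand, H3K4me3 15.5: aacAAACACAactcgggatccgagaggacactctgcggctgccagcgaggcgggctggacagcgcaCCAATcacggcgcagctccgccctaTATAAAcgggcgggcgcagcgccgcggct
H1-2, chr6:26056699-26056818, minus strand, H3K4me3 9.73: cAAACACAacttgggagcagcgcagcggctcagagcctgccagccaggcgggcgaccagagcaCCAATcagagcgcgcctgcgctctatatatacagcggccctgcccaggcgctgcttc
H1-1, chr6:26018016-26018135, minus strand, no peak: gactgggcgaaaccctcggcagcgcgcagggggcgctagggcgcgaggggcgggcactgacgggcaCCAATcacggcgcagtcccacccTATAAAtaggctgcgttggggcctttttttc
H1-6, chr6:26108364-26108483, minus strand, no peak: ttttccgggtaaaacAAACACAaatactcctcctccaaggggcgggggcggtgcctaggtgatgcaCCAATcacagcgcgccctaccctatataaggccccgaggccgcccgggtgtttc
The H1 box of H1-1 lay further upstream than these 120 bases.

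Over the promoter window from 250 bases before to 50 after the start site on hg19, elements were searched on both strands. TATAAA stood in 35 of 51 members and in 9.80% of all 20162 promoters. CCAAT stood in 45 of 51 members against 35.9% of promoters. ATTTGCAT stood in 20 members, 10 H2A and 10 H2B, against 1.58% of promoters. These are counts of genes and not of sites, since the windows of close head-to-head partners overlap. In H2AC1/H2BC1, H2BC4/H2AC6, H2BC11/H2AC11, H2BC12/H2AC12, H2AC14/H2BC14 and H2AC17/H2BC17 the 1 octamer between the start sites counted for both genes. The H1 box was found in all 6 H1 members and in no member of another type, against 4.21% of promoters. GGTCCG was found in 8 H4 members and 1 H3 member, against 14.6% of promoters. The GC box GGGCGG, in contrast, stood in 8 members and in 60.9% of all promoters. The median GC content was 43.0% in members and 63.3% in all promoters, and the median number of CpG was 11 against 23.

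The same measures were compared between members with and without H3K4me3, with no test. The median GC content was 43.0% in the 31 members with an H3K4me3 peak past the limits and 43.3% in the 20 without, and the median number of CpG was 11 and 10.5. The octamer stood in 13 of 31 and 7 of 20, the CCAAT box in 27 of 31 and 18 of 20, and the H1 box in 2 of 31 and 4 of 20. The widest difference was that of TATAAA, which stood in 25 of 31 and in 10 of 20. The windows of close head-to-head partners overlap, so that 1 element can count for both genes. The pairs H2BC4/H2AC6, H2AC14/H2BC14 and H2AC17/H2BC17, all with H3K4me3, held 1 TATAAA each between their start sites, and both genes were counted. A match of these letters is a description of the window and not a bound site.

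The stem-loop at the end of the histone mRNA was searched for in the 200 bases after the coding sequence as a 16-base hairpin, with a stem of 6 pairs that opens with GG and a loop of 4 bases with T at loop positions 1 and 3. It was found in 49 of 51 members (not in H2AC11 or H2AC15), 25 to 65 bases after the coding sequence. Among the other 19830 protein-coding genes searched it was found in 21 (0.106%), and 13 of these were histone genes of the same symbol forms on other chromosomes. The forms found in 2 or more members are shown with all 16 bases in capitals.
30 members of H1, H2A, H2B and H3: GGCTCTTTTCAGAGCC
7 members of H1, H2B and H3: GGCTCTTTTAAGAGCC
7 H4 members: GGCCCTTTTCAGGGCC
2 H4 members: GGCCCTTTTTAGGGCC
The H4 hairpins differed from those of the other types in the stem. Of the 30 members with the commonest form 19 had H3K4me3, and of the 7 H4 members with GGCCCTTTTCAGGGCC 4 had it, so the same hairpin was present in marked and unmarked members.

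H3K4me3 was found past the limits over 31 of the 51 histone genes (60.8%), beside 64.1% of all protein-coding genes, a share near the background. The members that had the mark had low values of it. Their fold enrichment ran from 7.06 to 18.7 with a median of 12.7, whereas the 12928 protein-coding genes with an H3K4me3 peak had a median of 22.8. All 31 members lay below that median. The members' median was above 10.8% of those genes, and the highest member was above 30.1%. Of the 31 members 9 exceeded 15, 18 lay between 10 and 15, and 4 lay under 10.

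H3K9Ac was found over 33 members (64.7%), beside 63.6% of all genes. The fold enrichment of H3K9Ac ran from 6.67 to 15.05 with a median of 12.1, close to the median of 13.3 over all genes with a peak, and 25 of 33 members lay below that median. H3K4me1 was found over 31 members, beside 64.7% of all genes. Its fold enrichment ran from 3.50 to 5.73 with a median of 4.78, against 5.02 over all genes with a peak.

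**Figure D1:**
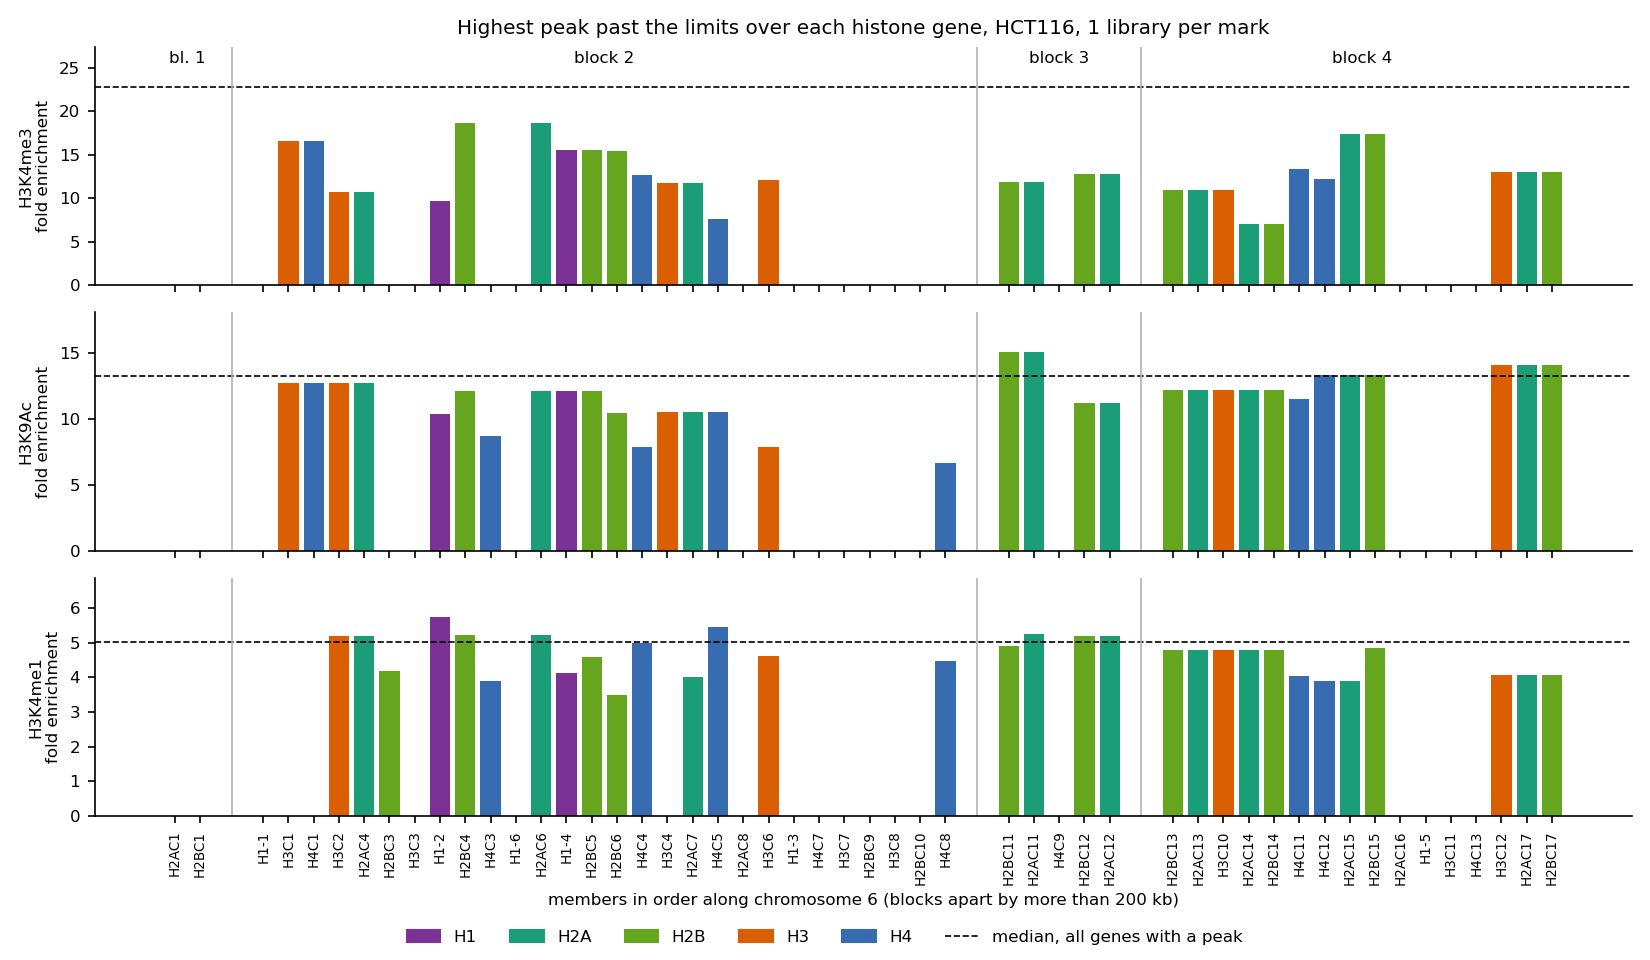
Fold enrichment of the highest peak past the limits of H3K4me3, H3K9Ac and H3K4me1 over each of the 51 members, in order along chromosome 6, colored by histone type, with 1 library per mark and no error bars. A missing bar means no peak past the limits, and the dashed lines are the medians over all protein-coding genes with a peak (22.8, 13.3 and 5.02). All H3K4me3 bars stay under the dashed line.

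The fold enrichment of H3K4me3 divided by that of H3K9Ac had a median of 1.12 over the 31 members with both marks and of 1.69 over the 12567 protein-coding genes with both. It was below 1 in 15 of 31 members (48.4%) and in 1.95% of those genes. The lowest ratio among the members was 0.581, at H2AC14 and H2BC14, and the highest was 1.61, at H4C4. The 2 libraries were scaled separately, so the ratio ranks genes and has no absolute meaning. The histone genes of the same symbol forms on other chromosomes also had close values of the 2 marks. Their medians were 19.7 for H3K4me3 and 16.2 for H3K9Ac, each over 15 genes with a peak. A low ratio is therefore not shown to be particular to the members.

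**Figure D2:**
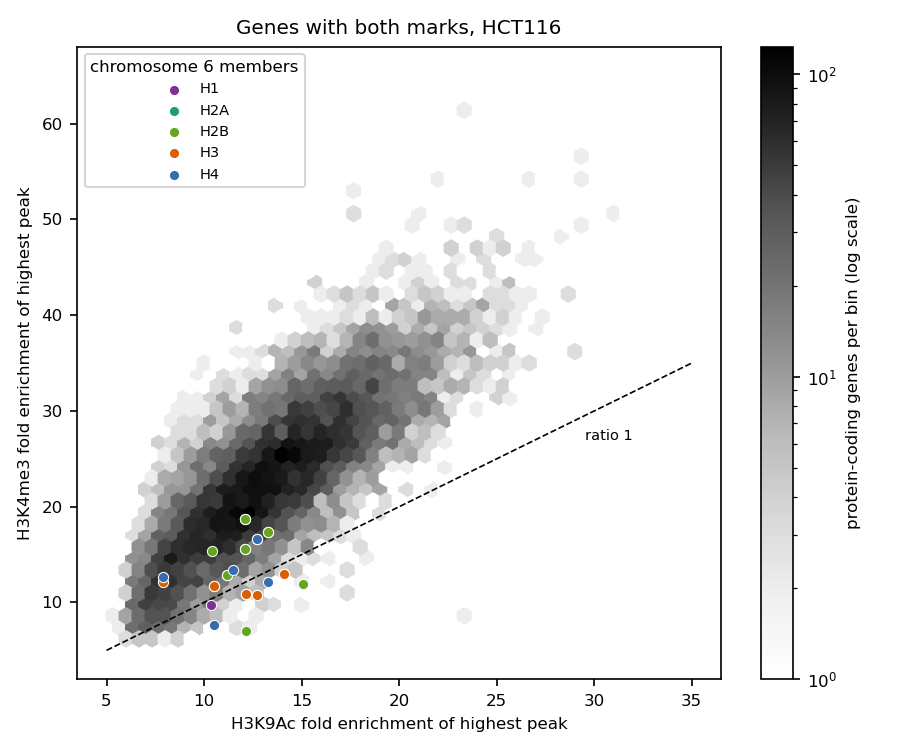
H3K4me3 fold enrichment against H3K9Ac fold enrichment for genes with both marks. The grey bins hold all protein-coding genes on a log count scale, the colored points are the members by histone type (members under the same peaks lie on top of each other), and the dashed line is a ratio of 1. The members lie at ratios of 0.581 to 1.61, under the median of 1.69 over all genes with both marks, with 15 of 31 below the line.

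Other lists of genes were described in the same way. The histone genes of the same symbol forms on other chromosomes had H3K4me3 in 15 of 17, with a median fold enrichment of 19.7 and a range of 12.1 to 26.6. The genes of replacement histones, which are made outside S phase as well (the lists overlap, with H1-10 in both), had it in 11 of 12 with a median of 25.9, among them H3-3B with 48.8 and H2AX with 45.9. The 12 genes for factors of histone transcription and histone mRNA processing all had it, with a median of 20.3. Among them were NPAT with 19.9, HINFP, the activator of H4 promoters, with 18.3, and SLBP, which binds the histone stem-loop, with 33.9. Other protein-coding genes with a canonical transcript of 1 exon and a length under 2 kb had H3K4me3 in 12.7% of 647, with a median of 20.3 in those that had it. Only the members were left out of these short genes, and other histone genes were not. Their highest value, 45.9, was that of H2AX. Promoter GC moved with the height of H3K4me3. Among the 6134 other genes whose promoter GC lay within the range of the members, 37.4% had the mark with a median of 19.98, and among the 13465 genes with a higher GC 78.3% had it with a median of 23.6. The part of GC content in the members' values was not tested.

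Over members, where a shared peak counts for each gene under it, the median width of H3K4me3 was 3232 bp over members and 2051 bp over all genes with a peak, and that of H3K4me1 was 3694 and 2298 bp. For H3K9Ac it was 9919 bp against 3096.5 bp, wider than the H3K9Ac peaks of 96.4% of genes. With each distinct peak over the members counted once, the median width was 2349 bp for H3K4me3, 8591 bp for H3K9Ac and 2365 bp for H3K4me1, the last close to that over all genes. In all 31 members with both marks the H3K9Ac peak was wider than the H3K4me3 peak, by a median factor of 3.01.

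The windows of the 31 members with H3K4me3 met 19 distinct peaks, of which 12 met 2 or more members and 7 met 1. The H3K9Ac peaks numbered 17, of which 11 were shared and which met up to 5 members each. Some of these peaks were met only through extended gene models. That of H2BC4 took in an H3K4me3 (10.05) and an H3K9Ac (9.75) peak over HFE, and the H3K9Ac peak of H4C3. The H3K4me3 peak shared by H2BC5 and H2BC6 lay at neither start site. Within 1 kb of the start sites 17 distinct H3K4me3 peaks were met. Of the 19 H3K4me3 peaks 18 lay wholly inside an H3K9Ac peak, and 4 of the H3K9Ac peaks spanned more than 1 H3K4me3 peak. The widest H3K9Ac peak measured 16757 bp (chr6:26019872-26036628, fold enrichment 12.7). It ran over H3C1, H4C1, H3C2 and H2AC4, and over HIST1H4B, whose own H3K4me3 peak had a fold enrichment of 8.01. Under it were the H3K4me3 peak of H3C1 and H4C1 (16.6) and that of H3C2 and H2AC4 (10.8). The peak with most members (chr6:27774058-27782648, 8591 bp, fold enrichment 12.1) ran over H2BC13, H2AC13, H3C10, H2AC14 and H2BC14, and an H3K4me1 peak of 7228 bp with a fold enrichment of 4.78 lay over the same 5 genes. The number of members is therefore larger than the number of independent measurements.

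**Figure D3:**
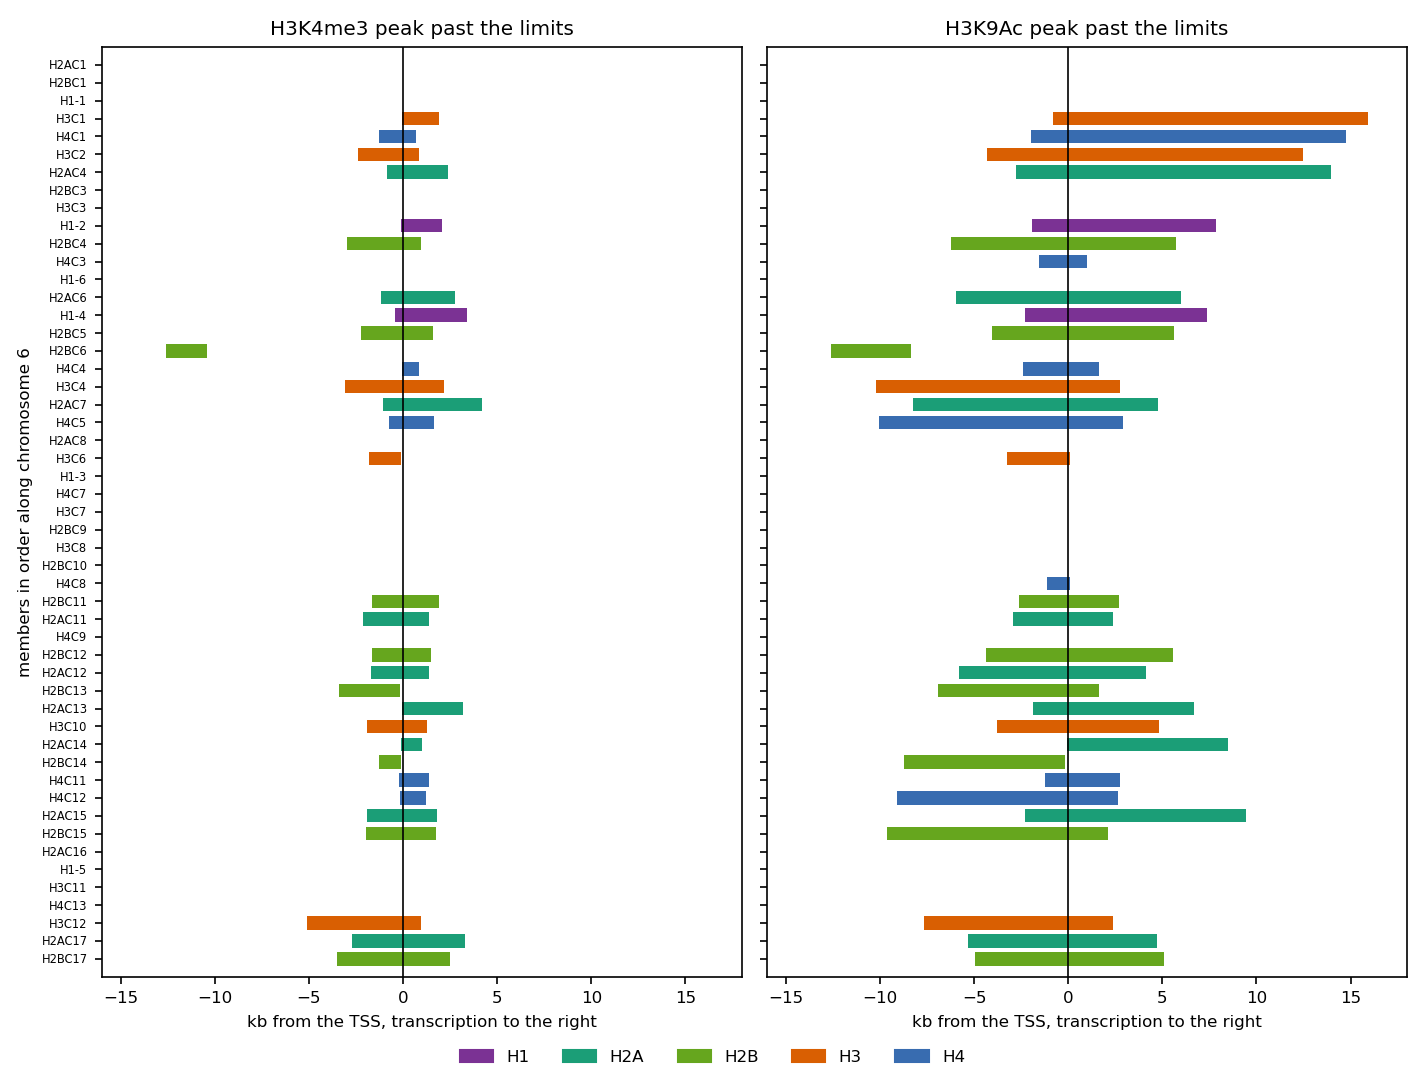
Extent of the highest H3K4me3 (left) and H3K9Ac (right) peak past the limits around the transcription start site of each member, in kb, with transcription to the right and members in order along the chromosome. Colors give the histone type. H3K9Ac bars are longer than the H3K4me3 bars in every member with both, and the H2BC6 bars lie away from the start site at 0.

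The start site lay inside the H3K4me3 peak in 27 of 31 members and inside the H3K9Ac peak in 31 of 33. For H3K4me1 it lay inside in 12 of 31, and the mark was otherwise beside the start site. The exceptions for H3K4me3 were H2BC6, H3C6, H2BC13 and H2BC14. In H2BC13 and H2BC14 the peak of the head-to-head partner ended short of the start site. In H2BC6 the peak (chr6:26171412-26173581, 15.4) lay 10408 bp upstream of the start of the canonical transcript, within the longer gene model, and no H3K4me3 peak lay within 1 kb of that start. In 27 members the H3K4me3 peak covered the whole canonical transcript. Over all 31 members with the mark, it reached a median of 1647 bp upstream and 1473 bp downstream of the start site.

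By histone type the counts were lowest for the linker histones. H3K4me3 lay over 2 of 6 H1, 9 of 12 H2A, 9 of 13 H2B, 6 of 10 H3 and 5 of 10 H4 members. H3K9Ac lay over 2, 9, 9, 6 and 7 of them, and H3K4me1 over 2, 9, 10, 4 and 6. The median H3K4me3 fold enrichment by type ran from 11.9 in H2A and H3 to 13.0 in H2B, with 12.6 in the 2 marked H1 members and 12.7 in H4, and the ranges of the types overlapped. These groups hold 6 to 13 genes and share peaks, and no test was made between them.

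**Figure D4:**
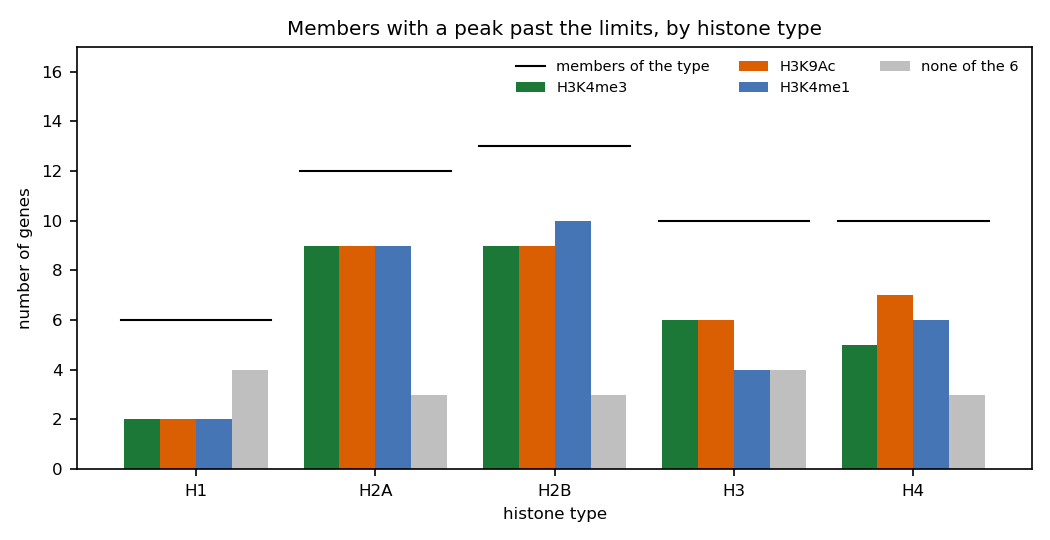
Number of members with a peak past the limits of H3K4me3, H3K9Ac and H3K4me1, and with no peak of any of the 6 lists, by histone type. Black lines give the number of members of each type (6, 12, 13, 10 and 10). H1 is the type in which members without a peak (4) outnumber those with H3K4me3 (2).

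Among the H1 genes, which encode the linker histones, H1-4 had an H3K4me3 fold enrichment of 15.5, an H3K9Ac of 12.1 and an H3K4me1 of 4.12, in peaks that also lay in the window of the neighbouring H2BC5. H1-2 had 9.73, 10.4 and 5.73, in peaks of its own. A weak CTCF peak with a fold enrichment of 3.67 lay in the coding part of H1-4. H1-1, H1-3, H1-5 and the testis-specific H1-6 had no deposited peak of any of the 6 marks within the gene or 1 kb around it. H1-2 had the highest H3K4me1 value of all 51 members, beside an H3K4me3 value under 10.

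Among the H2A and H2B genes 9 head-to-head pairs with start sites within 1 kb of each other were found, of which H3C7 and H2BC9, 978 bp apart, was the only one with an H3 gene. Of these pairs 7 lay under 1 shared H3K4me3 and 1 shared H3K9Ac peak, and 2 (H2AC1 with H2BC1, and H3C7 with H2BC9) had neither. Since the windows reach 1 kb beyond each gene, a peak at the shared promoter falls to both genes. Without the flanks H2BC13 and H2BC14 lost H3K4me3, and H2AC13 and H2AC14 kept it. The H2BC4 and H2AC6 pair had the highest H3K4me3 of all members, with 18.7 in a peak of 3967 bp (chr6:26123197-26127163) beside an H3K9Ac of 12.1. The H2AC15 and H2BC15 pair followed with 17.4 (chr6:27804348-27808070) and an H3K9Ac of 13.3. The H2AC14 and H2BC14 pair had the lowest, 7.06 (chr6:27781537-27782668, 1132 bp), beside an H3K9Ac of 12.1.

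The remaining pairs lay between these. The H2BC11 and H2AC11 pair of block 3 had an H3K4me3 of 11.9 and, with 15.05, the highest H3K9Ac of all members. The H2BC12 and H2AC12 pair had 12.8 and 11.2, the H2BC13 and H2AC13 pair 10.9 and 12.1, and the H2AC17 and H2BC17 pair, under a 6035 bp H3K4me3 peak that also covered H3C12 and was the widest of the members, 13.0 and 14.1. H2AC4 (10.8 and 12.7), H2AC7 (11.8 and 10.5), H2BC5 (15.5 and 12.1) and H2BC6 (15.4 and 10.4) were marked outside such pairs. H2BC3 had an H3K4me1 peak (4.18) and nothing else past the limits. H2AC8, H2AC16 and H2BC10 had no deposited peak.

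Among the H3 genes H3C1 had the highest H3K4me3 (16.6, with an H3K9Ac of 12.7) in a peak shared with H4C1. H3C12 had 13.0 and 14.1, H3C6 12.1 and 7.87, H3C4 11.8 and 10.5, H3C10 10.9 and 12.1, and H3C2 10.8 and 12.7. H3C1, H4C1 and H3C4 were the 3 members with H3K4me3 and H3K9Ac and no H3K4me1 past the limits, each with a weak H3K4me1 peak (3.46, 3.46 and 3.53). H3C7, H3C8 and H3C11 had no deposited peak, and H3C3 had only a weak H3K4me1 peak of 3.16.

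Among the H4 genes, which lack a head-to-head partner in this set, H4C1 had the highest H3K4me3 (16.6), followed by H4C11 (13.4), H4C4 (12.7), H4C12 (12.2) and H4C5 (7.61). Their H3K9Ac was 12.7, 11.5, 7.89, 13.3 and 10.5. H4C3 and H4C8 had H3K9Ac (8.71 and 6.67) and H3K4me1 (3.89 and 4.48) past the limits and only weak H3K4me3 peaks, with a fold enrichment of 5.14 and 4.95 and a −log10 q-value of 6.82 and 6.28, short of the q-value limit. They were the only members with H3K9Ac and no H3K4me3 past the limits, whereas 0 members had H3K4me3 without H3K9Ac. Just inside the limits lay H2AC14 and H2BC14, with a −log10 q-value of 11.9. H4C7 and H4C13 had no deposited peak, and H4C9 had only a weak H3K36me3 peak of 3.29.

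The values of H4C11 and H4C12 are uncertain, because their coding sequences are identical over 309 bases and only 8.57% and 7.99% of the 75-base reads of their transcripts would occur once in hg19. The share was 38.7% for the transcript of H2AC13 and 35.8% for that of H2AC14, the member with the lowest H3K4me3 and the lowest ratio, whose values are uncertain in the same way. In the whole windows of the members at least 85.1% of 75-base reads were unique. Of the 17 members without a peak past the limits 14 had windows in which every such read was unique (lowest 94.9%), against 11 of the other 34. The part of repeated sequence in the missing peaks was not tested.

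No peak of any of the 6 marks past the limits was found over 17 of 51 members, beside 19.7% of all genes, and no deposited peak at all over 15, beside 9.26%. The share without any peak was not counted for the other short genes of 1 exon. H3K4me3 alone, a different measure, lay over 12.7% of them. The 17 members were H2AC1 and H2BC1 in block 1, H1-1, H3C3, H1-6, H2AC8, H1-3, H4C7, H3C7, H2BC9, H3C8 and H2BC10 in block 2, H4C9 in block 3, and H2AC16, H1-5, H3C11 and H4C13 in block 4. In contrast, 28 members had H3K4me3, H3K9Ac and H3K4me1 together.

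The unmarked members lay partly in runs. H1-3, H4C7, H3C7, H2BC9, H3C8 and H2BC10 followed each other over 39.201 kb (chr6:26234440-26273640), in which the only deposited peak of the 6 lists was a weak CTCF peak (6.39). H2AC16, H1-5, H3C11 and H4C13 followed each other over 8.218 kb (chr6:27833095-27841312) with no deposited peak at all. H1-1 stood at the start of block 2, and the other unmarked genes of blocks 2 and 3 stood singly, the nearest H3K9Ac peak past the limits beginning 1856 bp from H1-1 and 1628 bp from H4C9. Block 1, with the testis-specific H2AC1 and H2BC1, had its nearest H3K4me3 peak past the limits 265220 bp away. By block, H3K4me3 lay over 0 of 2, 15 of 28, 4 of 5 and 12 of 16 members.

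H3K27me3 was absent from the blocks in these lists. No member had an H3K27me3 peak past the limits, beside 3.08% of all genes, and none had a deposited one, beside 21.9%. No deposited H3K27me3 peak touched any of the 4 blocks, whereas these peaks covered 6.44% of chromosome 6. For the 6-gene run of block 2 the nearest lay 400161 bp away, and for the 4-gene run of block 4 606433 bp. The nearest to block 1 lay 67544 bp away. The unmarked members were without a peak of H3K27me3 as well. With 1 library of unknown depth a signal below the caller's threshold was not detectable.

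Over all members, the share with an H3K36me3 peak was close to that over other short genes. Among members with H3K4me3 it was lower than among other short genes with H3K4me3. No member had a peak past the limits, beside 0.546% of all genes and 0 of the 647 other genes of 1 exon under 2 kb. A weak peak lay over 5 members (9.80%), beside 57.6% of all genes and 11.7% of the other short genes. These were H2AC6 (3.47), H3C6 (3.45), H4C9 (3.29), H3C4 (2.96) and H2BC15 (2.57). Among members with H3K4me3, 4 of 31 (12.9%) had a deposited H3K36me3 peak. The share was 42.7% in other genes of 1 exon under 2 kb with H3K4me3 and 82.4% in all genes with H3K4me3. Weak H3K36me3 peaks covered 0%, 3.70%, 31.3% and 6.10% of blocks 1 to 4, against 5.49% of chromosome 6 under deposited peaks. Inside the blocks they lay mostly beside the histone transcripts, and 2 of the 8 touched one, at H3C4 and H3C6.

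CTCF was found past the limits over 3 members (5.88%), beside 46.3% of all genes. In the 647 other genes of 1 exon under 2 kb the share was 5.87%. The 3 members had gene models of 37610, 12597 and 6899 bp, so the likeness to the short genes rests on windows of unlike length. Each of the 3 peaks lay in an extended gene model and more than 4 kb from any member's canonical transcript. They were the peak in the model of H2BC4 (chr6:26097314-26098102, 13.6, also over HFE), that in the model of H2BC6 (chr6:26175493-26176300, 8.07, 7689 bp from the H2BC6 transcript) and that in the model of H2BC11 (chr6:27094668-27095422, 17.5, 4673 bp from the H2BC11 transcript). Within 1 kb of the start sites 0 of 51 members had CTCF, against 13.6% of all genes and 4.64% of the other short genes of 1 exon. Weak CTCF peaks overlapped the coding parts of H4C3 (4.68), H1-4 (3.67) and H4C4 (5.82). Block 2 held 4 CTCF peaks past the limits, block 3 held 1 and block 4 held 0.

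Blocks 2 to 4 were dense in active marks beside the whole of chromosome 6. They were also dense in genes, with 28 members over 268.607 kb in block 2 against 1048 protein-coding genes over 171115 kb. The part of gene density in the shares below was not tested. H3K9Ac peaks past the limits covered 29.3%, 53.3% and 33.1% of blocks 2, 3 and 4 and 1.44% of chromosome 6. H3K4me3 covered 11.3%, 26.5% and 17.4% against 0.789%, and H3K4me1 covered 20.04%, 26.7% and 25.1% against 2.69%. Block 1 had 0 bases under any deposited peak.

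**Figure D5:**
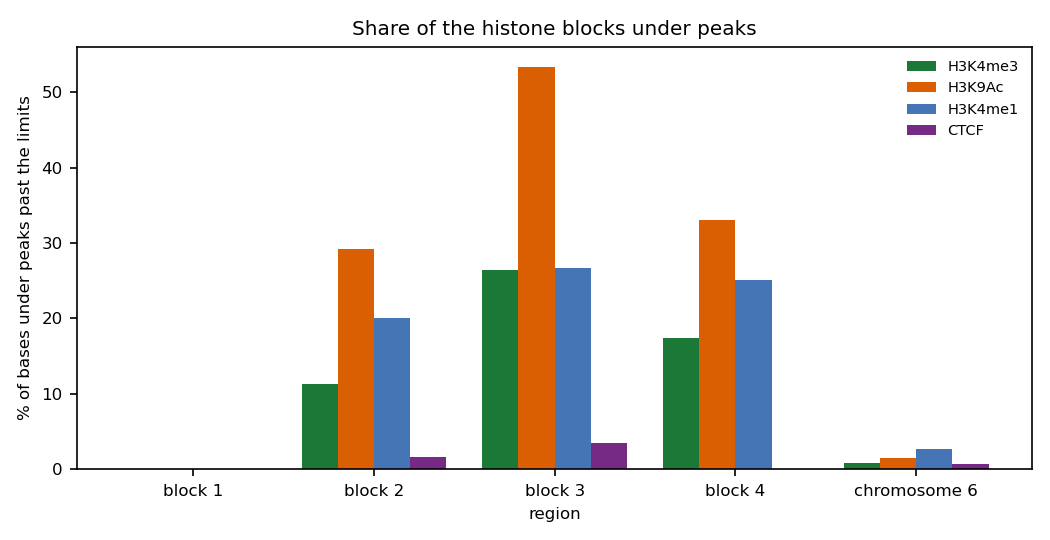
Percent of bases under peaks past the limits of H3K4me3, H3K9Ac, H3K4me1 and CTCF in the 4 histone blocks and in the whole of chromosome 6. The H3K9Ac bars are the highest in blocks 2 to 4 (29.3%, 53.3% and 33.1%), and block 1 has no bar.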

How the data were processed

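Peak lists of 6 PIXUL-ChIP-seq libraries of HCT116 cells were analysed. The authors used BWA 0.7.12 for alignment to hg19 and MACS2 for broad peaks, called in each library with the cutoff 0.1 (the submitters' processing notes list MACS 1.4.2). The fold enrichment that the authors deposited is a linear ratio, a −log10 q-value and a −log10 p-value (not used) were deposited per peak, and the deposited integer score was not used. The limits of the study's methods were applied to the deposited values. The methods do not name CTCF, for which the limits of the stricter group were taken. Reads were of 75 bases, and the sources differ on whether they were paired.

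Genes, canonical transcripts and start sites came from GENCODE 44 on hg19, without the mitochondrial genes and the second copy of the pseudoautosomal genes. A peak was assigned with at least 1 bp of overlap. Sequences were read from the hg19 reference. Motifs were searched as exact letters on both strands. Uniqueness was counted over all 75-base stretches of hg19. Overlaps were tested on simulated data and checked against bedtools 2.31.1. Python 3.11.15, numpy 2.4.6, pandas 2.3.3, scipy 1.17.1 and matplotlib 3.10.9 were used.

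Named with all marks were the members with the 3 highest and 3 lowest H3K4me3 values, those without H3K4me3, those with H3K36me3, H3K27me3 or CTCF, the first and last of each block, the testis and H1 members and the highest and lowest pairs. The members and lists were chosen with earlier results of these data known. No test was made, since each mark had 1 library, and the depth of the libraries is unknown. The alternatives were other limits, other windows, a larger minimum overlap, merged peaks and another choice of peak per member. Some items of these lists and sequences are not reported here.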

Additional observations from a re-analysis of the deposited data

How the results depend on the processing

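Of 70 recomputed values, 62 stayed within 1.5 times the count, or for medians within the 95% order-statistic interval (for CTCF, with 3 values, their range), and 8 moved. That interval treats members as independent although neighbours share peaks, so it served only as a working range. Under the limits used for the other group, 0 members had H3K4me1 and 5 had CTCF, in place of 31 and 3. With all deposited peaks, 5 members had H3K36me3 and 6 had CTCF, and the median CTCF fold enrichment was 6.94 in place of 13.6. CTCF was found over 10 members with 5 kb on each side and over 0 with 1 kb on each side of the start site or with the canonical transcript and 1 kb on each side. The last window was chosen after seeing that 11 gene models exceed 1 kb. With a fold enrichment limit multiplied by 1.5, H2AC14 and H2BC14 lost H3K4me3, and with 1 kb around the start site H2BC6 lost all 3 active marks. No member had under 50% unique reads over its whole window, so that this alternative left out no member and tested nothing. Medians of H3K36me3 and H3K27me3, and that of CTCF around the start site, have no value because no member had a peak. No paired analysis was possible because there is 1 library for each antibody.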
